A study of Mus musculus with 9 samples.

Results

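Transcript levels of 8 secreted Wnt antagonist genes, *Sfrp1*, *Sfrp2*, *Sfrp4*, *Sfrp5*, *Frzb*, *Dkk2*, *Dkk3* and *Wif1*, were followed in mouse embryonic hearts carrying a *Ctcf* missense mutation. They were 8 of the 24571 genes used from the expression table. *Sfrp5* was chosen by its measured levels, which rose with the number of mutant alleles in these same libraries, and the other 7 were listed as relatives of its function. The *Sfrp5* values are therefore given as a description without a test. The hearts came from E18.5 C57BL/6N embryos that were wild type, heterozygous (*Ctcf*+/R567W) or homozygous (*Ctcf* R567W/R567W) for a substitution in the zinc-finger protein CTCF introduced by CRISPR/Cas9 editing, with 3 libraries per genotype. The allele is present in every cell of the embryo, so that the genotype of the heart muscle is not separated from that of other organs. Each heart was collected in its own tube, but the labels do not say whether embryos of a genotype shared a litter. Values are TPM, in which each gene's share of the reads is divided by its length. Every library has nearly the same sum, so that the read depth behind the values is unknown. An SD printed with a mean is that of 3 libraries. In the tests, the spread within genotypes was pooled over all 9 libraries for each gene.

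Wnt proteins are secreted lipid-modified ligands that bind Frizzled receptors and the co-receptors LRP5 and LRP6, which stabilises β-catenin in the canonical branch and controls cell polarity in other branches. Secreted antagonists act outside the cell. The secreted Frizzled-related proteins, encoded by *Sfrp1*, *Sfrp2*, *Sfrp4*, *Sfrp5* and *Frzb*, carry a domain like the ligand-binding part of Frizzled and can bind Wnts, and WIF1 binds Wnts through a different domain. Dickkopf proteins such as DKK2 act on the LRP co-receptors, whereas DKK3 is a divergent member of that family. In the embryo, canonical Wnt signalling must be restrained for cardiac mesoderm to become heart muscle, and it is used again in the outflow tract, the valves and the epicardium.

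*Sfrp5* lies at chr19:42197971-42202252 on the minus strand (mm10, GENCODE M21), a span of 4282 bases with 1 annotated transcript. It overlaps no other annotated gene and shared 0% of its 31-base words with transcripts of other genes, so that its reads can be assigned without a competing copy. The same held for *Frzb* (chr2:80411970-80447625), *Dkk3* (chr7:112116017-112159057) and *Wif1* (chr10:121033960-121100650). *Sfrp1* (chr8:23411502-23449632), *Sfrp4* (chr13:19623104-19632994) and *Dkk2* (chr3:132085292-132180304) shared between 0.324% and 1.91% of their words. *Sfrp2* (chr3:83766321-83774316) overlaps the antisense transcript *Gm26771* and shared 13.7% of its words with it. Whether reads were counted by strand is not given in the sources used here, so part of the *Sfrp2* level is uncertain.

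RefSeq promoter sequences (GRCm38.p6) matched 5 of the 8 genes. The 250 bases before the start site are shown for *Sfrp5*, the gene chosen for its rise with allele number, and for *Sfrp2*, a relative with no call in any comparison. For both genes the RefSeq and GENCODE starts are the same base. Capitals mark CCCTC, the letters from which CTCF takes its name, on either strand, with GAGGG as the form on the opposite strand.
Sfrp5, chr19:42202253-42202502, minus strand: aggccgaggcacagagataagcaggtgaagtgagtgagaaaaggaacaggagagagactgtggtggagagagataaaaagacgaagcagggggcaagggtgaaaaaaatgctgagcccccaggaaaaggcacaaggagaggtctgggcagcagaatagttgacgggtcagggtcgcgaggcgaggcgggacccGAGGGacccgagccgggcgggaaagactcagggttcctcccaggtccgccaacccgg
Sfrp2, chr3:83766071-83766320, plus strand: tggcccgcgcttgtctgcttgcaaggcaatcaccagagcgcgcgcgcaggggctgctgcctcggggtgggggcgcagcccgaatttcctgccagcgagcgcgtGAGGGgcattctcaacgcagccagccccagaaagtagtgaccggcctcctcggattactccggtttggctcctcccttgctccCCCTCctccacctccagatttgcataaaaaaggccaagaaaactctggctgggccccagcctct
The *Sfrp5* window held 1 such match, beginning 57 bases before the start site, and the *Sfrp2* window held 2, beginning 147 and 64 bases before its start. Over 32817 promoter windows of this length, 60.5% held at least 1 match, so that its presence is common. Neither window held TATAAA (12.4% of all windows) or the TCF/LEF-type words CTTTGAT (3.21%) and CTTTGAA (4.46%), searched on both strands. The last 2 words differ only in their final letter and cannot match at the same base. The *Sfrp5* window was 59.6% G and C with 13 CpG, against medians of 52.4% and 6 over all windows. These matches describe letters in the window only.

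*Sfrp5* stood at 1.27, 1.83 and 1.55 TPM in the wild-type hearts. It was at 3.18, 3.25 and 2.38 TPM in the heterozygous hearts and at 13.32, 13.66 and 6.69 TPM in the homozygous hearts. The 3 genotypes were without overlap, and the lowest homozygous library was above the highest heterozygous one. The genotypes averaged 1.55 ± 0.28, 2.94 ± 0.483 and 11.2 ± 3.93 TPM (SD, n = 3 each), so that the mean was 1.89 times the wild-type level with 1 mutant allele and 7.24 times with both. On the log2(TPM + 1) scale, which understates the change of low genes, the differences were 0.62 between heterozygous and wild-type and 1.58 between homozygous and heterozygous hearts. Homozygous replicates 1 and 2 lay close together, and replicate 3 lay between them and the heterozygous level. Leaving out replicate 3 moved the homozygous mean to 13.5 TPM and the log2 difference from wild type from 2.21 to 2.51.

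**Figure D1:**
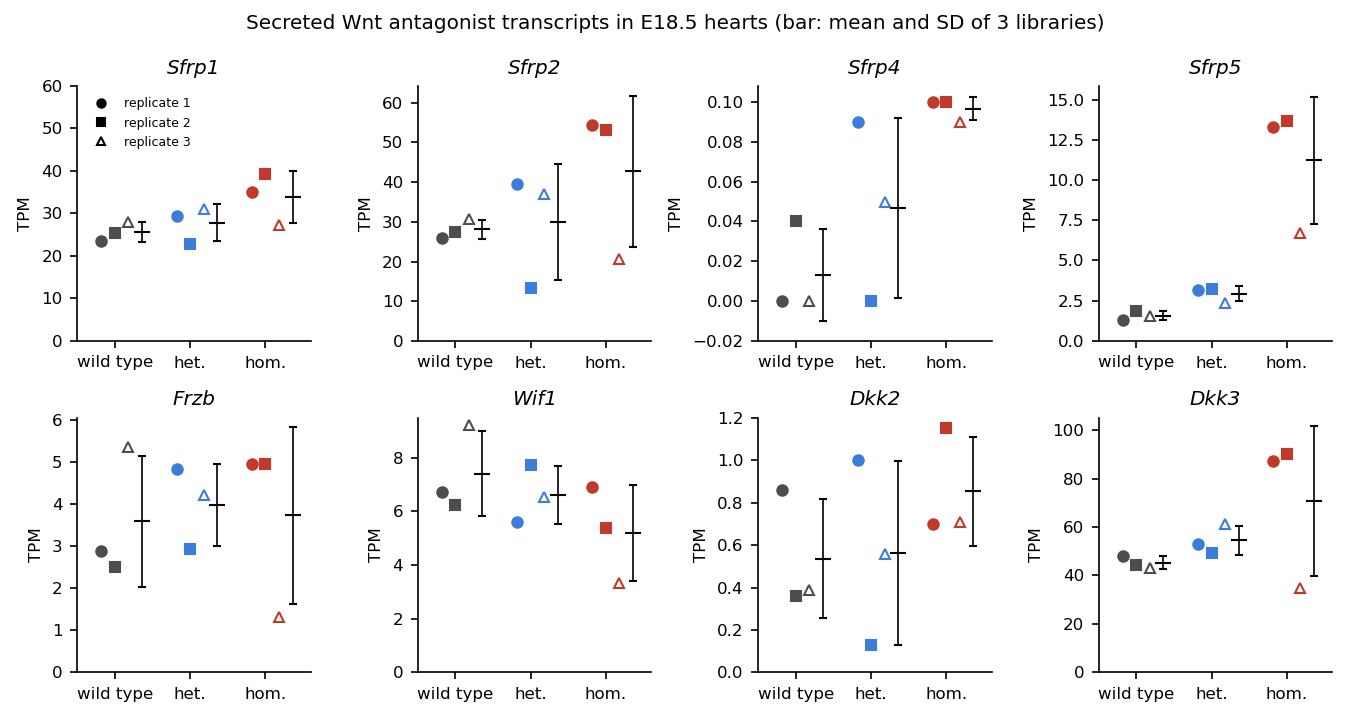
TPM of the 8 secreted Wnt antagonist transcripts in each of the 9 libraries, by genotype, with the mean and SD of 3 libraries beside the points and the symbol giving the replicate number. *Sfrp5* rises from 1.27 to 1.83 TPM in wild-type to 6.69 to 13.66 TPM in homozygous hearts, and homozygous replicate 3 (open triangle) is the lowest homozygous library for the 6 genes above 1 TPM.

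Several facts of the whole series touch these values. Homozygous replicate 3 carried transcripts of the thymus, with 12 of 12 thymocyte genes above 1 TPM and a sum of 582 TPM, where each other library had a sum of 0.56 to 2.78 TPM. Markers of lung and airway (12 genes) reached 2630 TPM for wild-type replicate 1 and 1110 TPM for heterozygous replicate 1, with 2.19 to 52.8 TPM elsewhere. Liver markers (10 genes) reached 3940 TPM for heterozygous replicate 1 and 167 TPM for wild-type replicate 1, with 30.3 to 73.9 TPM elsewhere. These 3 libraries were left out together in one alternative. All 8 cardiomyocyte markers were above 1 TPM in every library and summed to 30700 to 43200 TPM, with the lowest sum in homozygous replicate 3. The 5 smooth-muscle markers summed to 1470, 1510 and 1490 TPM (wild type), 1460, 1110 and 1450 TPM (heterozygous) and 1210, 774 and 813 TPM (homozygous). Wild-type and homozygous hearts did not overlap, with the lower sums in the hearts that were higher for *Sfrp5*, and their part in the *Sfrp5* level was not tested. Endothelial markers summed to 243 to 415 TPM, erythroid markers to 2850 to 15500 TPM and sinoatrial markers to 11.3 to 24.9 TPM. The female transcript *Xist* was at 87.8 to 146 TPM in wild-type replicate 1, the 3 heterozygous libraries and homozygous replicate 1 and at most 0.05 TPM in the rest, so that the heterozygous group was not balanced for sex.

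The 8 fibroblast markers, all above 1 TPM in every library, summed to 1270, 1340 and 1530 TPM (wild type), 1660, 1100 and 1780 TPM (heterozygous) and 1890, 1930 and 856 TPM (homozygous). The libraries lowest for fibroblast markers, homozygous replicate 3 and heterozygous replicate 2, were also the lowest of their groups for *Sfrp1*, *Sfrp2*, *Frzb* and *Dkk3*. For *Sfrp5* and *Wif1*, homozygous replicate 3 was the lowest of its group, but heterozygous replicate 2 was the highest, at 3.25 and 7.75 TPM. Epicardial and mesothelial markers summed to 87.1 to 132 TPM, and the 5 cartilage markers in the table to 2.71 to 18.3 TPM. In such bulk samples, fewer cells of a type and less RNA per cell cannot be told apart.

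Every one of the 6 members above 1 TPM was lowest of the homozygous trio in replicate 3, as were 59.1% of the 13602 tested genes that had a level in the other homozygous libraries. The ratio of replicate 3 to the mean of the other homozygous libraries was 0.496 for *Sfrp5*, 0.394 for *Dkk3*, 0.385 for *Sfrp2*, 0.265 for *Frzb*, 0.546 for *Wif1* and 0.731 for *Sfrp1*. Its median over those 13602 genes was 0.874, with a 10th percentile of 0.608, so that 5 of the 6 members, all but *Sfrp1*, lay below that percentile. The fibroblast marker sum of this library was likewise the lowest of the 9.

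Levels were also set against the family sum and the fibroblast sum within each library, a description chosen after the values had been seen. As a share of the summed TPM of the 8 antagonists, *Sfrp5* made up 1.16%, 1.69% and 1.31% in wild-type, 2.33%, 3.26% and 1.66% in heterozygous and 6.58%, 6.57% and 7.04% in homozygous hearts. Per 1000 TPM of summed fibroblast markers it was at 0.998, 1.36 and 1.01 in wild-type, 1.92, 2.95 and 1.34 in heterozygous and 7.03, 7.08 and 7.82 in homozygous hearts. On both scales the 3 homozygous libraries lay close together, replicate 3 included, while heterozygous and wild-type hearts overlapped. The part of cell composition in the *Sfrp5* level was not tested.

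**Figure D2:**
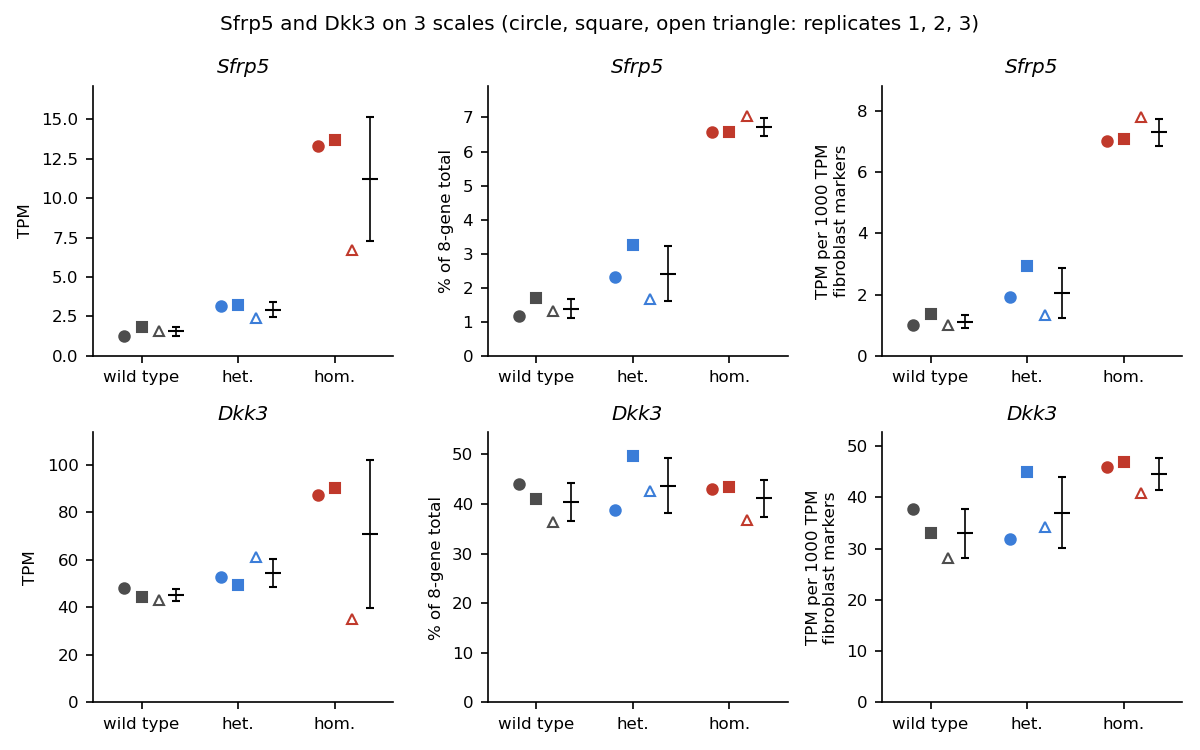
*Sfrp5* and *Dkk3* in each library as TPM, as a percentage of the summed TPM of the 8 antagonists and per 1000 TPM of 8 summed fibroblast markers, with the mean and SD of 3 libraries per genotype. Homozygous replicate 3 (open triangle) is far below replicates 1 and 2 in TPM for both genes, and for *Sfrp5* it joins them at 7.04% and 7.82 on the other scales.

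The other 7 genes differed widely in abundance. In wild-type hearts the order by mean was *Dkk3* (45.2 TPM), *Sfrp2* (28.1 TPM), *Sfrp1* (25.6 TPM), *Wif1* (7.40 TPM), *Frzb* (3.58 TPM), *Sfrp5* (1.55 TPM), *Dkk2* (0.537 TPM) and *Sfrp4* (0.0133 TPM). Of neighbours in this order, *Sfrp2* and *Sfrp1* had overlapping ranges over the 3 libraries and the other neighbours did not. In heterozygous hearts the order was the same, with overlap also between *Frzb* and *Sfrp5*. In homozygous hearts *Sfrp5* moved above *Wif1* and *Frzb* to rank 4, although its range still overlapped that of *Wif1*. The 8 genes together summed to 108 to 118 TPM (wild type), 99.6 to 143 TPM (heterozygous) and 202, 208 and 95 TPM (homozygous).

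Of these 7 genes, *Sfrp4* and *Dkk2* stayed under a mean of 1 TPM and were not tested, which left 5 for the comparisons. A linear model of the 3 genotypes was fitted to log2(TPM + 1) of all 13682 genes above that level with limma, and a gene was called at a Benjamini-Hochberg adjusted p under 0.05. In homozygous against wild-type hearts 0 of the 5 were called, where 0.336% of all tested genes were. At an unadjusted p under 0.05, 1 of 5 passed against 25.0% of all genes, and 0 of 5 were without overlap between the groups against 24.7%. In homozygous against heterozygous hearts 0 of 5 were called (0.0439% of all genes), 0 had an unadjusted p under 0.05 (7.15%) and 0 were without overlap (15.9%). In heterozygous against wild-type hearts 0 of 5 were called (0.0146%), 0 had an unadjusted p under 0.05 (6.87%) and 1, *Dkk3*, was without overlap (13.8%). The median log2 change of the 5 was 0.38, 0.26 and 0.11 in these comparisons, against 0.23, 0.08 and 0.15 over all tested genes. The comparisons share libraries, so that their values are not independent of each other. All 9 libraries also share 1 estimate of the spread of each gene, so that homozygous replicate 3 enters the error of every comparison. Without that library, 1 of the 5 had an unadjusted limma p under 0.05 in heterozygous against wild-type hearts, and 0 were called. Of all genes, 1315 of 13498 had such an unadjusted p in that fit.

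**Figure D3:**
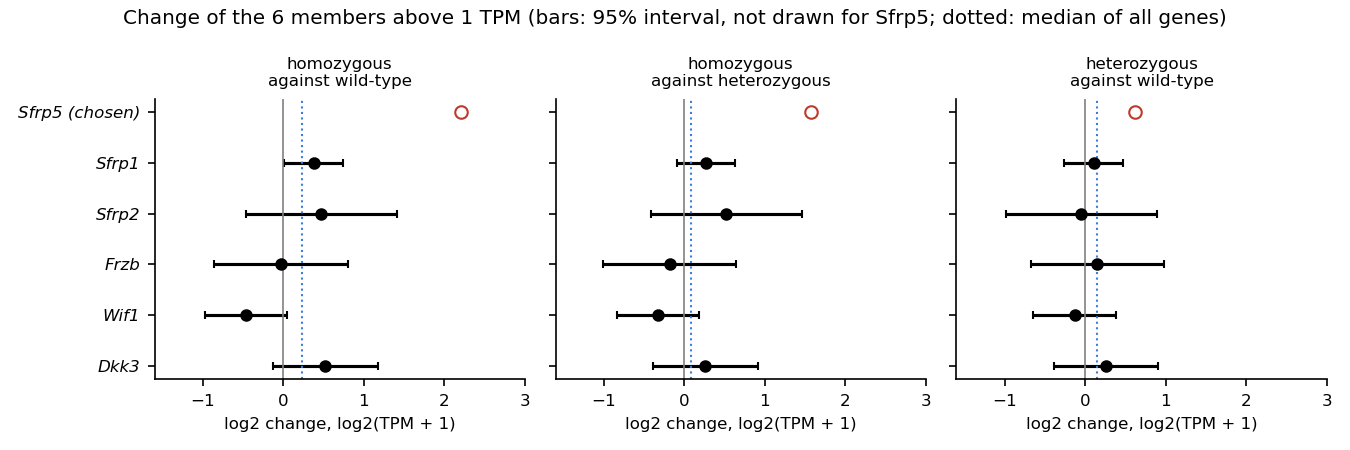
Log2 change on the log2(TPM + 1) scale for the 6 members above 1 TPM in the 3 comparisons, with the 95% interval from limma for the 5 tested genes and the median change of all genes as a dotted line. The intervals of the 5 tested genes include 0 except that of *Sfrp1* in homozygous against wild-type hearts, which starts at 0.01, and *Sfrp5* (open circle, drawn without an interval because it was chosen for this rise) stands at 2.21, 1.58 and 0.62.

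*Dkk3*, the most abundant member, was at 48.12, 44.42 and 42.95 TPM (wild type) and 52.97, 49.45 and 61.18 TPM (heterozygous). In the homozygous hearts it was at 87.14, 90.23 and 34.98 TPM, so that replicates 1 and 2 were above all other libraries and replicate 3 was below them all. The means were 45.2 ± 2.66, 54.5 ± 6.02 and 70.8 ± 31.05 TPM (SD, n = 3 each). From wild type to homozygous the log2 change was 0.52 (SE 0.29, 95% interval −0.13 to 1.17, limma adjusted p 0.278). Homozygous replicate 3 decided this result. Without it the change was 0.96 with a limma adjusted p of 0.00756, in a fit that called 2.07% of genes, and without the 3 libraries rich in markers of other organs it was 1.01 with an adjusted p of 0.0278, where 0.395% were called. Over 15 alternatives the adjusted p ran from 0.00756 to 0.627, and *Dkk3* was called in those 2 only. Per 1000 TPM of fibroblast markers, *Dkk3* was at 37.8, 33.0 and 28.1 in wild-type, 31.9, 44.9 and 34.3 in heterozygous and 46.0, 46.8 and 40.9 in homozygous hearts, a scale on which wild-type and homozygous hearts did not overlap. On this scale *Sfrp2*, higher, and *Wif1*, lower, were also without overlap between those groups, whereas in TPM 0 of the 5 tested members were. The scale was chosen after the values had been seen. How many of all genes were without overlap on it was not computed, so that this is a description only.

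Among the secreted Frizzled-related genes, *Sfrp1* was at 23.41, 25.35 and 28.10 TPM (wild type), 29.46, 22.82 and 31.15 TPM (heterozygous) and 34.94, 39.38 and 27.17 TPM (homozygous). The homozygous replicates 1 and 2 were above all other libraries, and replicate 3 lay within the wild-type range. Its log2 change from wild type to homozygous was 0.38 (SE 0.16, 95% interval 0.01 to 0.74) with a limma adjusted p of 0.190, and this was the 1 member with an unadjusted p under 0.05 (0.0446). Relative to the median of all genes the change was 0.14, and after median-ratio scaling it was 0.13 with an adjusted p of 0.543. Per 1000 TPM of fibroblast markers *Sfrp1* stayed between 17.5 and 20.7 in 8 libraries and was at 31.7 in homozygous replicate 3.

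*Sfrp2* was at 26.05, 27.56 and 30.68 TPM (wild type), 39.59, 13.24 and 37.09 TPM (heterozygous) and 54.32, 53.13 and 20.70 TPM (homozygous). Heterozygous replicate 2 and homozygous replicate 3 were below every wild-type library, and the other mutant libraries were above every one. From wild type to homozygous the log2 change was 0.47 (SE 0.42, 95% interval −0.47 to 1.41, limma adjusted p 0.477), an interval that includes 0 and values above 1. It was 0.24 without homozygous replicate 1 and 0.91 without homozygous replicate 3. Per 1000 TPM of fibroblast markers *Sfrp2* was at 20.1 to 20.5 in wild-type and 24.2 to 28.7 in homozygous hearts, with 12.0 to 23.9 in heterozygous hearts.

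*Frzb*, which encodes a Frizzled-related protein first known from cartilage, was at 2.89, 2.50 and 5.36 TPM (wild type), 4.83, 2.92 and 4.20 TPM (heterozygous) and 4.94, 4.94 and 1.31 TPM (homozygous). The groups overlapped in each comparison. Its log2 change from wild type to homozygous was −0.03 (SE 0.37, 95% interval −0.86 to 0.80, limma adjusted p 0.966). *Sfrp4* was listed between 0 and 0.10 TPM, at 0 in wild-type replicates 1 and 3 and heterozygous replicate 2, a level too low for a comparison.

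*Wif1* was the tested member with the most negative change. Its levels were 6.74, 6.25 and 9.21 TPM (wild type), 5.60, 7.75 and 6.53 TPM (heterozygous) and 6.91, 5.37 and 3.35 TPM (homozygous). The groups overlapped, since homozygous replicate 1 lay inside the wild-type range. From wild type to homozygous the log2 change was −0.46 (SE 0.23, 95% interval −0.97 to 0.05, limma adjusted p 0.233), and relative to the median of all genes it was −0.69. It was −0.66 without homozygous replicate 1 and −0.23 without homozygous replicate 3. Per 1000 TPM of fibroblast markers *Wif1* was at 4.65 to 6.03 in wild-type and 2.79 to 3.91 in homozygous hearts. Heterozygous hearts were at 3.38 to 7.04 on that scale. *Dkk2* was at 0.86, 0.36 and 0.39 TPM (wild type), 1.0, 0.13 and 0.56 TPM (heterozygous) and 0.70, 1.15 and 0.71 TPM (homozygous), with overlap between all groups.

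The remaining comparisons gave no call among the 5 genes. Between homozygous and heterozygous hearts the log2 changes were 0.27 for *Sfrp1*, 0.52 for *Sfrp2*, −0.18 for *Frzb*, −0.33 for *Wif1* and 0.26 for *Dkk3*, with limma adjusted p between 0.776 and 0.936. Leaving out single libraries moved them to 0.14 to 0.41 for *Sfrp1*, 0.03 to 0.97 for *Sfrp2*, −0.41 to 0.27 for *Frzb*, −0.53 to −0.09 for *Wif1* and 0.03 to 0.70 for *Dkk3*. The lower value came without heterozygous replicate 2 for *Sfrp1* and *Sfrp2*, without homozygous replicate 2 for *Dkk3* and without homozygous replicate 1 for *Frzb* and *Wif1*, and the upper value came without homozygous replicate 3 for all 5. Between heterozygous and wild-type hearts they were 0.11, −0.05, 0.15, −0.13 and 0.26 in the same order, with adjusted p between 0.756 and 0.974, and ran over single left-out libraries from 0.02 to 0.24, −0.32 to 0.44, −0.02 to 0.41, −0.24 to 0.02 and 0.18 to 0.33. The widest 95% intervals were those of *Sfrp2*, from −0.42 to 1.46 and from −0.99 to 0.89, so that changes of that size in either direction were not resolved.

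Genes around *Sfrp5* were read to see whether the rise extended along the chromosome. Of the genes in the table that start within 250 kb of its span, 11 were found and 6 were above 1 TPM, all on the side of lower coordinates. The nearest, *Zfyve27* (chr19:42163951-42194590), ends 3381 bases from *Sfrp5* and was at 13.24, 13.27 and 14.08 TPM (wild type) and 15.38, 17.51 and 20.95 TPM (homozygous). Wild-type and homozygous hearts were without overlap, as for 24.7% of all genes, while heterozygous hearts (13.42 to 16.02 TPM) overlapped both. The log2 change of *Zfyve27* from wild type to homozygous was 0.37 (SE 0.14) with an adjusted p of 0.146 from limma. Unlike *Sfrp5*, it was highest in homozygous replicate 3. The other 5, *Ubtd1*, *Morn4*, *Pi4k2a*, *Avpi1* and *Marveld1*, had log2 changes of −0.35 to 0.26 and adjusted p of 0.262 to 0.964. On the other side, *Golga7b* and *Crtac1* stayed at or below 0.56 TPM in every library. Of the untested genes on the side of lower coordinates, *Hoga1* averaged 0.333, 1.2 and 1.18 TPM in wild-type, heterozygous and homozygous hearts. Heterozygous replicate 1, the library richest in liver markers, was at 2.26 TPM, against 0.82 and 0.53 TPM in replicates 2 and 3. *Hoga1* was at 3.55 times the wild-type mean in homozygous hearts, with overlapping ranges. *4933411K16Rik* averaged 0.14, 0.28 and 0.34 TPM, and *Ankrd2* stayed at or below 0.33 TPM. These levels were too low for a comparison.

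**Figure D4:**
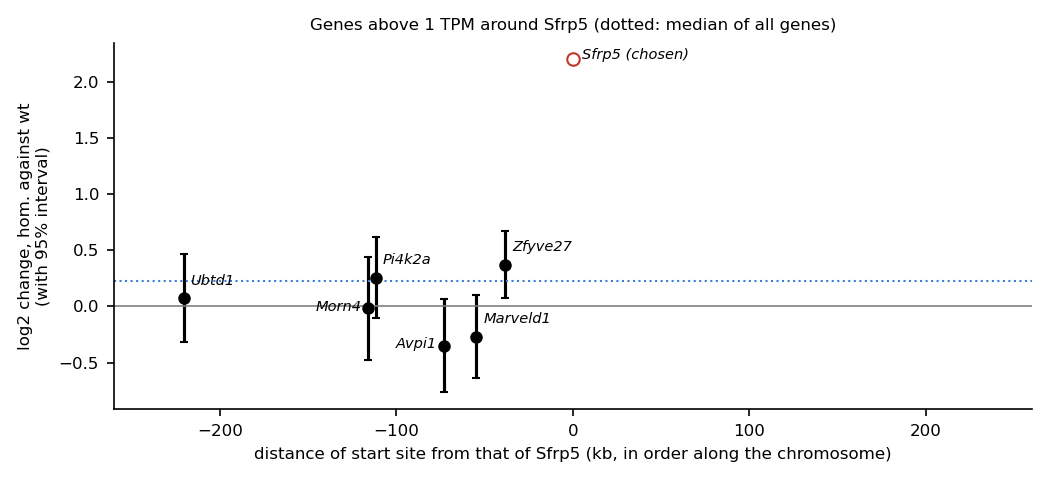
Change from wild type to homozygous on the log2(TPM + 1) scale for genes above 1 TPM within 250 kb of *Sfrp5*, against the distance of their start sites from that of *Sfrp5* in kb, with 95% intervals from limma for the 6 neighbours. The neighbours lie between −0.35 and 0.37, and *Sfrp5* (open circle, chosen for its rise) is at 2.21.

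The genes whose profile was closest to that of *Sfrp5* were taken from 9951 other genes averaging 5 TPM or more, by the root mean square difference of centred log2(TPM + 1) values over the 9 libraries. The lincRNA *Gm20186* and *Serpinb9*, a granzyme B inhibitor gene, were closest with 0.32 each, followed by the glutathione transferase gene *Gstp2* (0.43), the kinase gene *Sbk3* (0.44) and *Robo1*, a receptor for Slit guidance cues (0.45). The median over all candidates was 0.90. This likeness is to the values for which *Sfrp5* was chosen and is a description only. *Gm20186* averaged 1.26, 4.13 and 10.3 TPM in the 3 genotypes. Both *Gm20186* and *Robo1* reached the minimum mean of 5 TPM over the 9 libraries only through the homozygous hearts. Mean levels in wild-type, heterozygous and homozygous hearts were 4.41, 7.45 and 13.3 TPM for *Sbk3* and 4.29, 5.24 and 11.3 TPM for *Robo1*.

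The rest of the Wnt pathway was examined in 8 lists of 93 genes, of which 90 were in the table and 66 were above 1 TPM. Among the 66, *Tcf7* and *Lef1* averaged above 1 TPM only through homozygous replicate 3. In each of the 3 comparisons 0 of the 66 were called by limma. At an unadjusted p under 0.05, 15 of the 66 (22.7%) passed in homozygous against wild-type hearts, 14 higher and 1 lower, which is close to the 25.0% of all genes. In homozygous against heterozygous hearts 4 passed (6.06%) and in heterozygous against wild-type hearts 3 (4.55%), beside 7.15% and 6.87% of all genes. The median log2 change of the 66 was 0.26, 0.09 and 0.17, against 0.23, 0.08 and 0.15 for all genes. The count was decided by single libraries. Without wild-type replicate 3, 8 of 66 (*Axin2*, *Bcl9*, *Dvl2*, *Fzd6*, *Lrp6*, *Pygo2*, *Vangl2* and *Wnt5b*, each higher) were called in homozygous against wild-type hearts. That fit called 2161 of all genes, 2022 of them higher. This was 15.8%, a larger share than in the lists. Without homozygous replicate 3, 1 of 65, *Fzd7*, was called, where 279 of all genes (2.07%) were, again a larger share. Genes named below for their unadjusted p, and *Lef1*, were picked after their values had been seen.

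Other secreted inhibitors were scarce. Of 7, only *Sost*, which encodes the LRP-binding protein sclerostin, was above 1 TPM, at 11.83, 11.08 and 9.50 TPM (wild type), 14.20, 5.04 and 14.18 TPM (heterozygous) and 14.09, 6.36 and 4.24 TPM (homozygous) (log2 change −0.49 between homozygous and wild-type, limma adjusted p 0.442). *Notum*, whose product removes the lipid from Wnts, averaged 0.492 TPM, and *Sostdc1* 0.0811 TPM. Of the 19 ligands, 6 were tested, and the most abundant were *Wnt11*, *Wnt5a* and *Wnt5b*. *Wnt5a* averaged 4.86 TPM over the 9 libraries and *Wnt11* 6.61 TPM, with log2 changes of 0.43 and −0.22 between homozygous and wild-type hearts and adjusted p of 0.263 and 0.567. *Wnt5b* averaged 3.25 TPM, had a log2 change of 0.45 (adjusted p 0.179), and its wild-type and homozygous hearts did not overlap. *Wls*, needed for the export of Wnts, averaged 54.8 TPM with a log2 change of 0.20 (adjusted p 0.407), and *Porcn*, which adds their lipid, averaged 2.34 TPM with an adjusted p of 0.995.

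Receptors and co-receptors gave 16 tested genes with a median log2 change of 0.26 from wild type to homozygous, and 5 had an unadjusted p under 0.05. *Lrp6*, a co-receptor on which Dickkopf proteins such as DKK2 act, was at 11.91, 14.81 and 15.23 TPM (wild type), 16.42, 20.64 and 18.45 TPM (heterozygous) and 22.51, 23.27 and 17.18 TPM (homozygous). Wild-type hearts were below both mutant groups without overlap, and the log2 change from wild type to homozygous was 0.55 (SE 0.16, limma adjusted p 0.113). *Fzd6* and *Fzd7*, Frizzled receptor genes, had log2 changes of 0.59 and 0.58 (adjusted p 0.121 and 0.120), and *Fzd4* and *Fzd9* by 0.38 and 0.55 (adjusted p 0.173 and 0.142). *Ryk*, a Wnt-binding receptor-like kinase, and *Kremen1*, a receptor for Dickkopf proteins such as DKK2, were the most abundant of the list beside *Fzd4*, with log2 changes of 0.04 and 0.13. Among R-spondins and their receptors, 6 were tested with a median of 0.24 and 0 at an unadjusted p under 0.05. *Lgr4*, the R-spondin receptor with the highest level, averaged 16.4 TPM with a log2 change of 0.17 (adjusted p 0.462). The ligand gene *Rspo1* and *Znrf3*, which encodes a ligase that removes Frizzled receptors, had log2 changes of 0.16 and 0.33 (adjusted p 0.814 and 0.232).

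In the β-catenin cascade 16 genes were tested with a median of 0.27. The β-catenin gene *Ctnnb1* averaged 257 TPM with a log2 change of 0.19 (adjusted p 0.367), and the kinase genes *Csnk1a1* and *Gsk3a*, next in abundance, were at 0.19 and 0.18 on that scale. A further 5 genes, *Dvl1*, *Dvl2*, *Tcf7l2*, *Bcl9* and *Pygo2*, had an unadjusted p under 0.05 with log2 changes of 0.37 to 0.62. Of 10 target genes, 9 were tested with a median of 0.19. The most abundant were the cell-cycle gene *Ccnd1* and, beside *Tcf7*, the growth regulator *Myc*, with log2 changes of −0.08 and 0.15 (adjusted p 0.793 and 0.723). *Axin2*, a feedback inhibitor widely read as a marker of canonical signalling, was at 2.03, 1.32 and 2.72 TPM (wild type), 2.55, 2.96 and 1.89 TPM (heterozygous) and 3.14, 3.73 and 4.17 TPM (homozygous). Its homozygous values were above all others, with a log2 change of 0.65 from wild type (SE 0.23, limma adjusted p 0.137). The highest value was that of homozygous replicate 3, which carried thymus transcripts, and their part in it was not tested. *Nkd2*, which binds Dishevelled and restrains Wnt signalling, was the lowest of the 66 in log2 change from wild type to homozygous, at 1.90, 1.64 and 2.17 TPM (wild type), 1.88, 1.04 and 2.37 TPM (heterozygous) and 0.59, 0.43 and 0.58 TPM (homozygous). Its homozygous values were below all others, with a log2 change of −0.92 (SE 0.25) that missed the threshold (adjusted p 0.109). *Tcf7* and *Lef1*, which are also abundant in thymocytes, reached 158.19 and 18.41 TPM in homozygous replicate 3, the library with thymus transcripts, against at most 1.31 and 1.16 TPM in the other 8. Their place among the 9 tested target genes, and the high mean of *Tcf7*, rest on that library.

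Planar cell polarity genes gave 10 tested members with a median of 0.31. *Vangl2*, a core polarity protein gene, was at 2.56, 3.72 and 4.15 TPM (wild type), 3.73, 4.63 and 4.17 TPM (heterozygous) and 6.08, 5.71 and 8.19 TPM (homozygous). Homozygous hearts were above both other groups without overlap, with a log2 change from wild type of 0.78 (SE 0.19, limma adjusted p 0.0983). Here too the highest value was that of homozygous replicate 3, the library with thymus transcripts. *Prickle2* had a log2 change of 0.56 (adjusted p 0.197), and *Daam1*, *Scrib* and *Prickle1*, the most abundant genes of the list, were at 0.22, 0.09 and 0.39 (adjusted p 0.222 to 0.599).

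**Figure D5:**
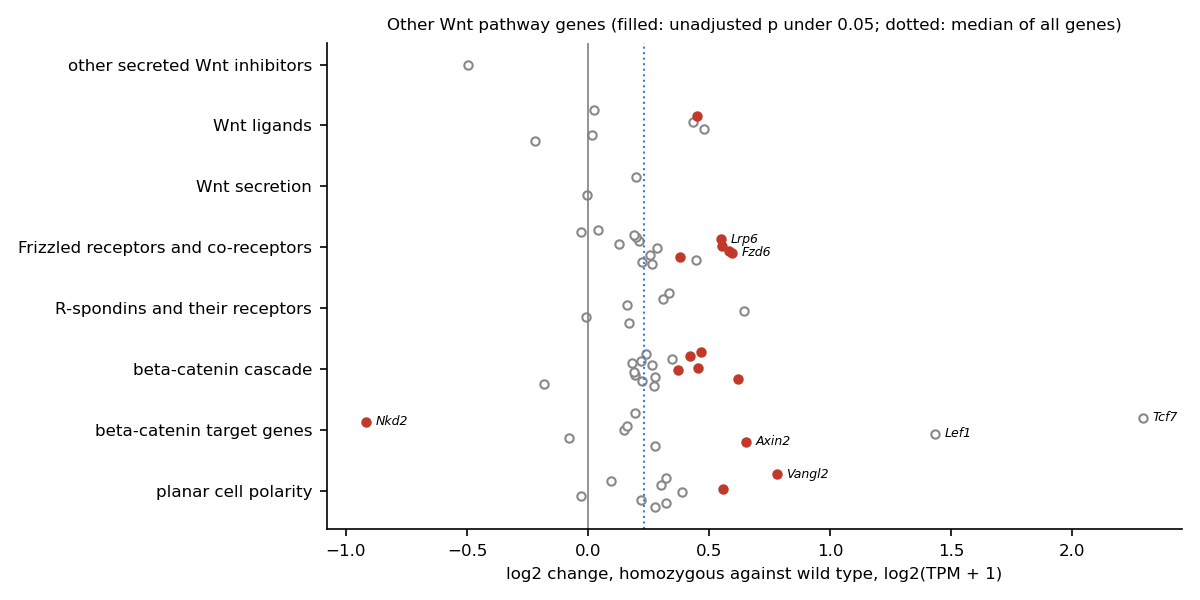
Log2 change on the log2(TPM + 1) scale between homozygous and wild-type hearts for the 66 other Wnt pathway genes above 1 TPM, by list, with genes at an unadjusted p under 0.05 filled and the median of all genes as a dotted line. Most genes lie around the median of 0.23, *Nkd2* is lowest at −0.92, and *Tcf7* and *Lef1* stand out through homozygous replicate 3.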

How the data were processed

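Hearts of E18.5 embryos were sequenced after mRNA capture, 3 libraries for each *Ctcf* genotype. Reads were trimmed by the authors (Trim Galore), aligned to mm10 (STAR) and quantified per gene (RSEM). The deposited values are TPM, with nearly the same total in every library (999100 to 999245), so depth and counting error are unknown. The annotation release is not given in the sources used here.

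After 26 rows whose symbols had become dates were left out, 24571 genes remained. Libraries were grouped by title. Genes averaging 1 TPM or more were fitted as log2(TPM + 1) on genotype in all 9 libraries with limma (v3.58.1, R v4.3.3; eBayes with trend), two-sided, with Benjamini-Hochberg adjustment over all tested genes. The study's DESeq2 test needs counts and was not run. By rule, the named genes are the 8 antagonists, the called and the 3 most abundant genes of each pathway list, the 5 profiles closest to *Sfrp5*, and its neighbours. As no pathway gene was called, some with an unadjusted p under 0.05, and *Lef1*, were added after their values had been seen. Levels per fibroblast marker and the count of pathway calls under each alternative were likewise chosen after seeing the data. Members and lists were chosen with earlier results of these data known. The fitting step was tested on simulated data. Alternatives comprised a pseudocount of 0.1, no filter on low values, median-ratio scaling, a replicate block, *Xist* as a covariate and leaving out libraries. For the 9 same-numbered pairs of libraries, deviations from the group means were correlated. The correlation exceeded 0.1 only between wild-type and heterozygous replicates 1 (0.359) and replicates 3 (0.297). In the rest it ran from −0.0306 to 0.0649. The numbers were therefore not taken to pair samples, and whether some hearts shared a litter or batch is not known. As nothing says that embryos came from separate litters, p-values measure the spread between these libraries.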

Additional observations from a re-analysis of the deposited data

How the results depend on the processing

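Of 270 member changes recomputed under 15 alternatives, 253 were counted as the same, 13 reversed direction, 2 became called and 2 moved. For the tested members, the same meant an unchanged direction and side of the threshold. For *Sfrp5*, which was not tested, it meant an unchanged direction and a shift smaller than its SD within genotypes. The 2 that moved were *Sfrp5* changes. The number of tested members called in homozygous against wild-type hearts went from 0 to 1 (*Dkk3*) without the 3 libraries rich in other organs' markers, and ranged from 0 to 1 when single libraries were left out, with 1 without homozygous replicate 3. For *Dkk3* the change was then 0.96 or, without the 3 libraries, 1.01. *Sfrp5* stayed between 2.01 and 2.72 in that comparison, the latter with a pseudocount of 0.1, and reached 1.93 against heterozygous hearts without the 3 libraries. *Frzb* turned upward in homozygous against wild-type hearts without wild-type replicate 3 (0.23), without homozygous replicate 3 (0.43) or without the 3 libraries (0.33), and against heterozygous hearts without homozygous replicate 3 (0.27) or the 3 libraries (0.40), with ranges over single left-out libraries of −0.26 to 0.43 and −0.41 to 0.27. In heterozygous against wild-type hearts, *Sfrp1* turned with median-ratio scaling (−0.06) and without the 3 libraries (0.00), *Sfrp2* without wild-type replicate 3 (0.01) or heterozygous replicate 2 (0.44), *Frzb* without wild-type replicate 2 (−0.02) or the 3 libraries (−0.06), *Dkk3* with *Xist* as a covariate (−0.01) and *Wif1* without wild-type replicate 3 (0.02). In that comparison, leaving out single libraries gave −0.32 to 0.44 for *Sfrp2*, −0.02 to 0.41 for *Frzb* and −0.24 to 0.02 for *Wif1*. The cause was not tested.

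Over all genes, 46 (26 higher) were called between homozygous and wild-type hearts, 6 between homozygous and heterozygous and 2 between heterozygous and wild-type hearts. Median-ratio scaling, which moved the median log2 change of the first from 0.23 to 0.01, gave 238 (39 higher), 13 and 5. No filter gave 22 in the first and 2 in the second, *Xist* as a covariate 0 in the second and 1 in the third, a pseudocount of 0.1 gave 1 in the third, and leaving out the 3 libraries gave 5 there. Leaving out single libraries gave 14 to 2161, 1 to 6 and 1 to 6, with the highest number without wild-type replicate 3. Leaving out single libraries gave 0 to 8 pathway genes in the first, with 8 in the fit that called 15.8% of all genes. With the replicate number as a block, which the labels do not show to pair the hearts, 17, 1 and 1 genes were called, and 0 of the 5 tested members.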
